A study of Mus musculus with 9 samples.

Results

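The genes described here are 8 brakes on entry into the cell cycle: 3 inhibitors of the CIP/KIP family (Cdkn1a, Cdkn1b, Cdkn1c), 2 of the INK4 family (Cdkn2c, Cdkn2d) and the 3 pocket proteins of the retinoblastoma family (Rb1, Rbl1, Rbl2). Their members were taken by gene symbol, as every probe that the platform annotation assigns to one of these symbols, which gave 18 probes of the 45281 on the array, and 8 of the 19057 genes it names. The samples are 9 Illumina bead arrays of sorted marrow LSK cells, a gate (no lineage markers, Sca-1 and Kit present) that contains blood stem cells and their earliest progeny. There were 5 arrays from wild-type (wt) mice and 4 from Socs2-/- mice, in which the suppressor of cytokine signalling Socs2 is inactivated. Both groups were male, C57BL/6 and 12 weeks old, and both had received 5-fluorouracil at 150 µg/g, with marrow taken 6 days later, so no untreated mice enter these comparisons. The labels do not say whether an array holds one animal or a pool, nor which part of Socs2 was deleted, and p-values therefore measure the spread between these arrays.

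Progression from G1 into S phase is driven by cyclin-dependent kinases (CDKs), which phosphorylate the pocket proteins and so free E2F transcription factors to switch on replication genes. INK4 proteins bind CDK4 and CDK6 and keep them from D cyclins, whereas CIP/KIP proteins bind complexes of cyclin and CDK, foremost those of CDK2. In blood stem cells Cdkn1c (p57) and Cdkn1b (p27) are known for holding cells in quiescence, Cdkn1a (p21) for p53-dependent arrest after stress, and Cdkn2c (p18) for limiting self-renewal. 5-Fluorouracil kills cycling cells and draws the survivors into division.

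Promoter sequence from RefSeq (GRCm38.p6) was matched for 6 of the 8 genes, in 8 windows of the 250 bases before an annotated start. Both strands were searched for TTTNNCGC, a loosened form of the E2F consensus, for the paired cores of a p53 site, 2 copies of CATG set 6 bases apart, for TTCNNNGAA, the STAT5 core, and for the forkhead core TGTTTAC. The E2F letters occurred in 4.28% of 32851 such windows in the genome, the p53 letters in 0.49%, the STAT5 letters in 7.02% and the forkhead letters in 3.17%. Among the windows of these genes, matches were found in those of Rbl1 and Cdkn1a. They are shown because Rbl1 and Cdkn1a are the textbook E2F-responsive and p53-responsive genes of the set, with the matched letters in capitals and each sequence written 5′ to 3′ on the strand of the gene. The Rbl1 window is chr2:157204535-157204784, minus strand, and its 2 E2F matches begin 18 and 8 bases before the start. The Cdkn1a window is chr17:29090729-29090978, plus strand, before the upstream of its 2 annotated starts, and its p53 match begins 48 bases before that start.
Rbl1: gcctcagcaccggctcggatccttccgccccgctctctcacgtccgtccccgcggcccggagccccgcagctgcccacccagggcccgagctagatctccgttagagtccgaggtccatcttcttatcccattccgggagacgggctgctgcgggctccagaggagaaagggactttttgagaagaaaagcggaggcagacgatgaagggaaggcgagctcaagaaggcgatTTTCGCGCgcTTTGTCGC
Cdkn1a: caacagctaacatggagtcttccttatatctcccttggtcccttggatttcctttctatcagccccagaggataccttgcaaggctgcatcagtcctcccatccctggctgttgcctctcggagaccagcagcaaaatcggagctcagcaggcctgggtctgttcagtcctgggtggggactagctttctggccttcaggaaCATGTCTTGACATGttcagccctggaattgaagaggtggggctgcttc

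The deposited values are on a log2 scale on which dim probes pile up near 7, and only probes with 4 or more of their 9 values over 7.5 were tested. This level is not a measured detection limit. The filter kept 16526 probes, and 12 of the 18 probes of these genes. All 3 Cdkn2c probes, 2 of 3 Cdkn1a probes and 1 of 2 Rbl2 probes did not meet it. Socs2 itself, the targeted gene, read 9.38 to 10.36 on the 5 wt arrays and 6.58 to 6.80 on the 4 Socs2-/- arrays by probe ILMN_2628178 (log2 difference -2.96, limma adjusted p = 0.028). Leaving out any single array other than wt array 3 raised that adjusted p above 0.05, with differences from -3.03 to -2.79 over all 9 such fits. Probe ILMN_2628178 met the filter through wt arrays alone. The other Socs2 probe, ILMN_1250749, did not meet it, and read 8.93 on wt array 2 and from 6.71 to 7.01 on all others.

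Socs2-/- arrays 1 and 2 stood apart before any gene was considered. Of the tested probes, 64.6% and 61.5% read above 7.5 on them, against 79.6% to 82.9% on the other 7 arrays, and they correlated less well with the rest (median r 0.68 and 0.65, elsewhere 0.78 to 0.82). The 12 tested probes of the cell cycle brakes went the same way: 4 and 5 of them read above 7.5 on these arrays, 8 on each of Socs2-/- arrays 3 and 4, and 8 to 11 on the wt arrays. Over the wt arrays 49 of 60 values (81.7%) lay above 7.5, close to the 81.8% of all tested probes. In the Socs2-/- arrays it was 25 of 48 values (52.1%), against 72.1% for all tested probes. For 9 of the 12 probes the lowest value of all was on Socs2-/- array 1 or 2, where 22.8% and 29.3% of all tested probes had theirs. The part of these arrays' low signal in the differences was not tested, and differences of the 12 probes are therefore also given without them.

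**Figure D1:**
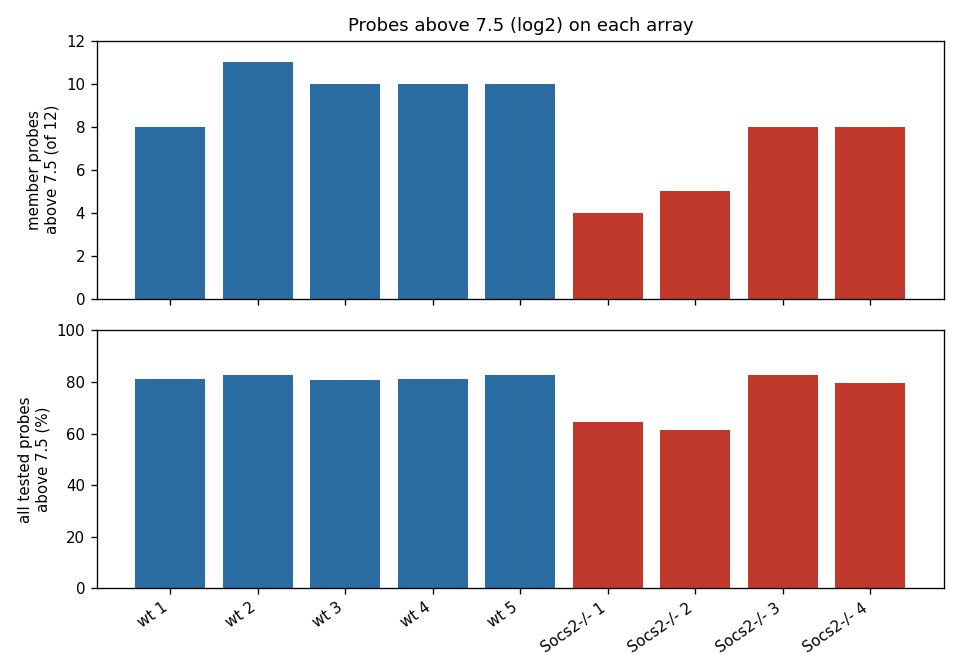
Number of the 12 tested probes of CDK inhibitors and pocket proteins above 7.5 (log2) on each array (top, bars) and the percent of all tested probes above 7.5 (bottom, bars), wt in blue and Socs2-/- in red. Socs2-/- arrays 1 and 2 had 4 and 5 of the 12 probes and the lowest shares of all probes, at 64.6% and 61.5%.

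The comparison between genotypes asks whether loss of Socs2, a brake on cytokine signals, goes with other transcript levels of these brakes in regenerating LSK cells. None of the 12 tested probes passed an adjusted p of 0.05 in limma, where 0.0121% of all tested probes did. At an unadjusted p under 0.05 there were 2, both lower in Socs2-/- arrays (1 of Cdkn1b, 1 of Rbl1), or 16.7% against 10.6% of all tested probes. Genotypes did not overlap for 2 probes (1 of Cdkn1b, 1 of Rb1), against 3.84% of all tested probes. The Cdkn1b probe in both counts met the filter through wt arrays alone, so neither count supports a difference by itself. Differences were below 0 for 9 of the 12, against 58.2% of all tested probes, with a median of -0.55 against -0.15 over all. Without Socs2-/- arrays 1 and 2 the median was -0.50 against -0.03, and 8 of 12 were below 0 (52% of all tested probes). Then 2 of the 12 had an unadjusted p under 0.05, against 6.52% of all tested probes. They were the same Cdkn1b probe, lower, and the Cdkn1c probe, higher. With no filter, 3 of all 18 probes had an unadjusted p under 0.05, where 7.6% of the 45281 probes did. Beside the Cdkn1b and Rbl1 probes of the first such count, the third was a probe of Rb1. Genes with several probes weigh more in these counts. With 1 probe per gene, the brightest tested, 4 of 7 genes were below 0 (57.1%, against 59.5% of all genes). The median over these 7 genes was -0.05, against -0.18 over all genes. Without Socs2-/- arrays 1 and 2 it was 0.12, against -0.03 over all genes. In bulk cells, fewer cells of a type and less RNA per cell cannot be told apart.

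**Figure D2:**
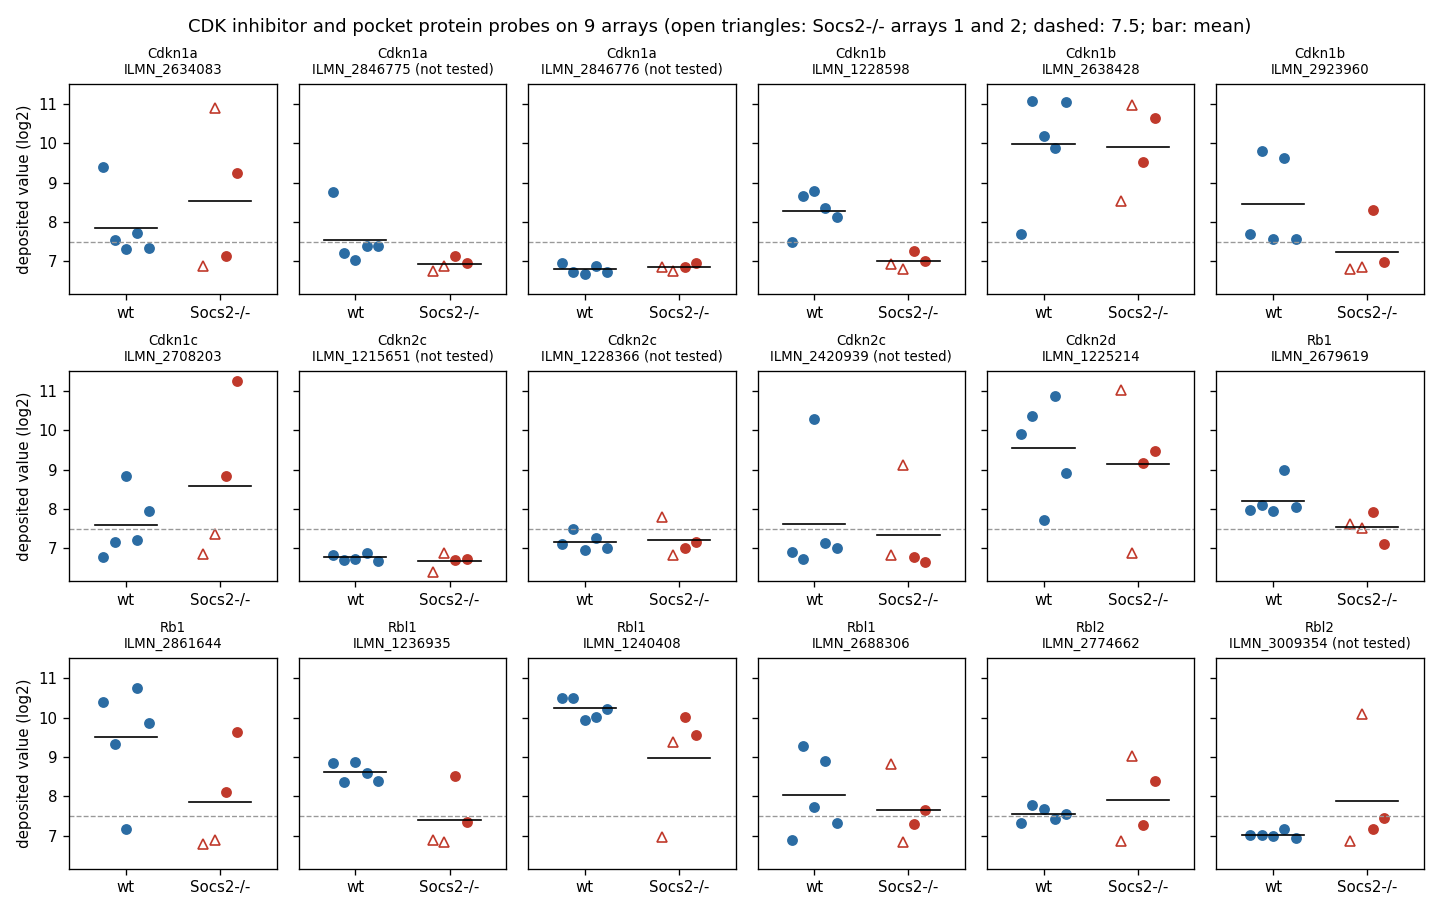
Deposited values (log2, vertical axis) of all 18 probes in wt (blue) and Socs2-/- (red) arrays, with open triangles for Socs2-/- arrays 1 and 2, horizontal bars for group means and a dashed line at 7.5. The groups lie fully apart for Cdkn1b ILMN_1228598 and Rb1 ILMN_2679619, and the other 16 probes overlap. The Cdkn1b probe met the filter through wt arrays alone.

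Cdkn1b, which encodes p27, had all 3 of its probes tested, and they did not give 1 picture. Probe ILMN_1228598 read 7.49, 8.66, 8.79, 8.35 and 8.12 on wt arrays 1 to 5. On Socs2-/- arrays 1 to 4 it read 6.92, 6.82, 7.26 and 7.0. Every Socs2-/- value lay below every wt value, and this probe met the filter through 4 wt arrays alone, so that a difference was built into its being tested. Its log2 difference was -1.28 (SE 0.37), with a limma p of 0.0052 before and an adjusted p of 0.296, and the exact two-sided permutation p of 0.0159 is the smallest that 5 against 4 arrays allow. The wt mean was 8.28 and the Socs2-/- mean 7.0. The difference was -1.15 without Socs2-/- arrays 1 and 2, and from -1.48 to -1.15 with any single array left out.

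The brightest Cdkn1b probe, ILMN_2638428, read above 7.5 on all 9 arrays and was alone among these probes in doing so. Its wt values were 7.68, 11.06, 10.19, 9.87 and 11.04, and its Socs2-/- values 8.52, 10.96, 9.53 and 10.65. The groups overlapped almost entirely, with the lowest value on wt array 1. Means were 9.97 ± 1.38 in wt (SD, n = 5) and 9.91 ± 1.11 in Socs2-/- arrays (SD, n = 4), a difference of -0.05 whose 95% interval ran from -1.72 to 1.61 (0.12 without Socs2-/- arrays 1 and 2). The third probe, ILMN_2923960, read 7.69, 9.80, 7.58, 9.63 and 7.57 in wt and 6.81, 6.85, 8.30 and 6.97 in Socs2-/- arrays. Here wt arrays 2 and 4 were high, and Socs2-/- array 3 alone among its group read above 7.5. Its difference of -1.22 (SE 0.61) had a limma adjusted p of 0.503 (exact permutation p = 0.111) and became -0.82 without Socs2-/- arrays 1 and 2.

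Cdkn1c, the p57 inhibitor associated with stem cell quiescence, was read by 1 probe. Its wt values were 6.78, 7.15, 8.84, 7.23 and 7.94, and its Socs2-/- values 6.86, 7.36, 8.85 and 11.26. Both groups held arrays near background and arrays above it, and Socs2-/- array 4 was the highest of all 9. The difference was 0.99 (SE 0.83, limma adjusted p = 0.672). It was 2.47 without Socs2-/- arrays 1 and 2 (limma adjusted p = 0.570), and 0.10 without Socs2-/- array 4, so that its size rested on single arrays.

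Cdkn1a, the p53-responsive p21 inhibitor whose promoter window is shown above, had 1 of 3 probes tested. Probe ILMN_2634083 read 9.38, 7.53, 7.32, 7.71 and 7.34 in wt and 6.88, 10.88, 7.14 and 9.25 in Socs2-/- arrays. Socs2-/- array 2 and array 4 and wt array 1 were high, and the other 6 arrays lay between 6.88 and 7.71. The difference of 0.68 had a 95% interval from -1.13 to 2.49 (limma adjusted p = 0.774), and it was -0.10 without Socs2-/- array 2, 1.23 without Socs2-/- array 1 and 0.34 without both. A second probe, ILMN_2846775, read 8.75 on wt array 1 and from 6.77 to 7.38 on the other 8 arrays. That array was thus the high wt array for both probes, whereas Socs2-/- array 2 read 10.88 by the first and 6.87 by the second. The third probe, ILMN_2846776, stayed between 6.69 and 6.97 on all 9 arrays.

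Of the INK4 inhibitors, Cdkn2d (p19) was tested and Cdkn2c (p18) was not. Cdkn2d read 9.91, 10.35, 7.71, 10.87 and 8.91 in wt and 11.02, 6.88, 9.17 and 9.47 in Socs2-/- arrays. Socs2-/- arrays 1 and 2 held both the highest and the lowest value of the 9. Its difference was -0.42 (SE 0.85, limma adjusted p = 0.872), -1.05 without Socs2-/- array 1, 0.33 without Socs2-/- array 2 and -0.24 without both. For Cdkn2c, probe ILMN_1215651 read at or below 6.90 on every array and probe ILMN_1228366 above 7.5 only on Socs2-/- array 1, at 7.81. Its probe ILMN_2420939 read 10.29 on wt array 3 and 9.12 on Socs2-/- array 2, and from 6.66 to 7.14 on the other 7. By this last probe 1 array of each genotype was high. The INK4 genes outside the set, Cdkn2a and Cdkn2b, also met the filter with none of their probes. Their brightest probes read above 7.5 on 1 array each, which was Socs2-/- array 2 in both cases (8.34 and 8.10).

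Rbl1, which encodes the pocket protein p107, had 3 tested probes, all with differences below 0. Probe ILMN_1236935 read 8.85, 8.37, 8.86, 8.58 and 8.40 in wt. In Socs2-/- arrays it read 6.88, 6.84, 8.52 and 7.36. Wt arrays kept to a narrow band, 3 Socs2-/- arrays lay below 7.5, and Socs2-/- array 3 lay within the wt range. Its difference was -1.21 (SE 0.41), with a limma p of 0.0145 before and an adjusted p of 0.383, and an exact permutation p of 0.0476. Without Socs2-/- arrays 1 and 2 it was -0.67 (limma adjusted p = 0.878).

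The brighter Rbl1 probe, ILMN_1240408, read 10.50, 10.51, 9.93, 10.02 and 10.23 in wt and 6.96, 9.37, 10.02 and 9.56 in Socs2-/- arrays. Socs2-/- array 1 alone was at background, arrays 2 and 4 lay below the lowest wt value, and array 3 lay within the wt range. Means were 10.24 ± 0.27 in wt (SD, n = 5) and 8.97 ± 1.37 in Socs2-/- arrays (SD, n = 4), and the difference of -1.26 (limma adjusted p = 0.473, exact permutation p = 0.0317) became -0.59 without Socs2-/- array 1 and -0.45 without arrays 1 and 2. The third probe, ILMN_2688306, overlapped between genotypes, at 6.88 to 9.27 in wt and 6.85 to 8.83 in Socs2-/- arrays, with a difference of -0.36 (limma adjusted p = 0.842; -0.54 without Socs2-/- arrays 1 and 2). Its highest Socs2-/- value was on array 1, the array where the other 2 probes were near background.

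Rb1, the founding member of the pocket protein family, had 2 tested probes, both with differences below 0. Probe ILMN_2679619 read 7.97, 8.11, 7.96, 9.0 and 8.05 in wt and 7.62, 7.51, 7.93 and 7.11 in Socs2-/- arrays. The groups did not overlap, but the gap between them was small, from 7.93 to 7.96. The difference was -0.67 (SE 0.36, limma adjusted p = 0.533; exact permutation p = 0.0159), and it was -0.70 without Socs2-/- arrays 1 and 2, and -0.48 without wt array 4. Probe ILMN_2861644 spanned a wider range, with 10.40, 9.32, 7.16, 10.76 and 9.86 in wt and 6.79, 6.90, 8.12 and 9.64 in Socs2-/- arrays. Wt array 3 and Socs2-/- arrays 1 and 2 were near background, and the other 6 arrays were above 8. Its difference was -1.64 (SE 0.81, limma adjusted p = 0.498), and -0.62 without Socs2-/- arrays 1 and 2.

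Rbl2, which encodes p130, the pocket protein that predominates in resting cells, had 1 tested probe. It read 7.32, 7.77, 7.68, 7.42 and 7.56 in wt and 6.88, 9.02, 7.28 and 8.40 in Socs2-/- arrays. Wt values stayed close to 7.5, whereas Socs2-/- arrays 2 and 4 were above and arrays 1 and 3 below all of them. The difference of 0.34 (SE 0.46, limma adjusted p = 0.804) was -0.03 without Socs2-/- array 2 and 0.29 without arrays 1 and 2. The second probe, ILMN_3009354, read 10.08 on Socs2-/- array 2 and from 6.86 to 7.45 on the other 8 arrays. Among the pocket proteins, 5 of 5 tested Rb1 and Rbl1 probes had differences below 0, as did 58.2% of all tested probes. They read only 2 genes, and probes of a gene are not replicates. The Rbl2 probes, 1 of them tested, had differences above 0, and the difference between these genes was not tested.

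**Figure D3:**
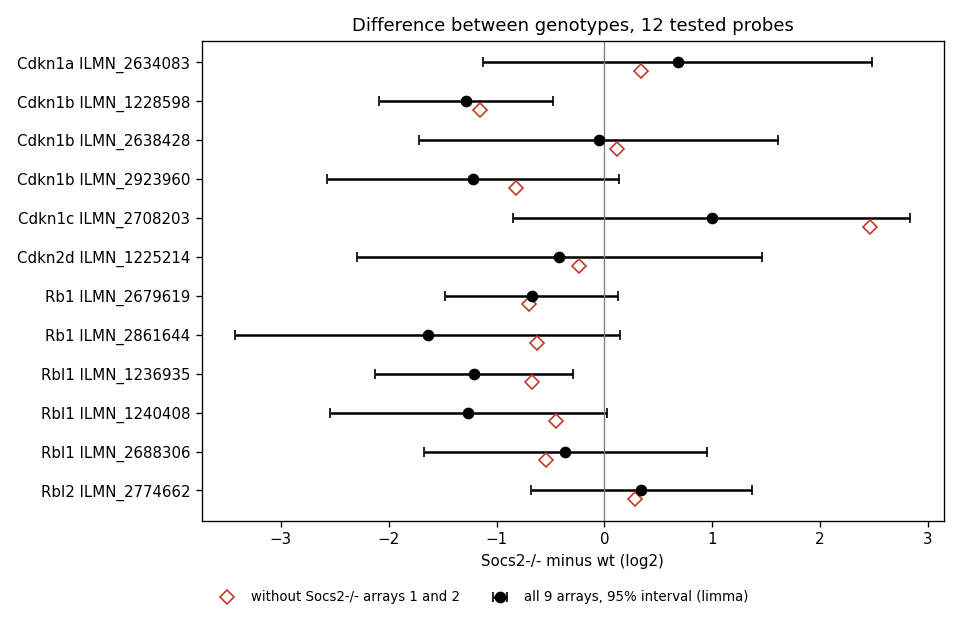
Difference between genotypes (Socs2-/- minus wt, log2) for the 12 tested probes, with limma's 95% interval over all 9 arrays (black) and the value without Socs2-/- arrays 1 and 2 (open red diamonds). Intervals exclude 0 for Cdkn1b ILMN_1228598 and Rbl1 ILMN_1236935 before any adjustment. The Cdkn1b probe met the filter through wt arrays alone, so a difference was built into its being tested. The diamonds of Rb1 ILMN_2861644 and Rbl1 ILMN_1240408 sit nearer 0, at -0.62 and -0.45.

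The SD among wt arrays reached the size of a probe's own difference for 4 of the 12 probes and the SD among Socs2-/- arrays for 7, and for 5 the difference was larger than both. The median SD over the 12 probes was 0.84 among wt arrays and 1.05 among Socs2-/- arrays, against 0.69 and 0.96 over all tested probes. It was lowest in wt arrays for Rbl2 ILMN_2774662 (0.18), Rbl1 ILMN_1236935 (0.24) and Rbl1 ILMN_1240408 (0.27). The SD was larger among Socs2-/- than among wt arrays for 6 of the 12 probes, against 70.5% of all tested probes.

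The genes that these brakes act on, or that act on them, were read with 1 probe per gene, the brightest, and 0 of them passed the adjusted threshold (0.0117% of 8543 genes did). Over all genes the median difference was -0.18, and 59.5% of differences were below 0. At an unadjusted p under 0.05, 8.04% of all genes were lower and 2.34% higher. Centring each array on its median moved that median to -0.06.

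The list of G1 cyclins and kinases holds targets of the inhibitors, and also Cdk7, Ccnh, Mnat1 and Cdc25a, which are not such targets. Of the latter, Ccnh (-1.05) and Cdc25a (0.09) were tested. In all, 10 of 13 genes were tested, with 8 below 0 and a median of -0.64 (-0.27 without Socs2-/- arrays 1 and 2). An unadjusted p under 0.05 was met by 3 genes, all lower, and by 0 genes of the list in limma without Socs2-/- arrays 1 and 2. The 4 genes ranked first by p were Cdk6, a partner of D cyclins and target of INK4 proteins (-1.71), cyclin D1 (Ccnd1, -1.04), cyclin A2 (Ccna2, -1.92) and cyclin E2 (Ccne2, -0.81), with limma adjusted p from 0.441 to 0.60. Without Socs2-/- arrays 1 and 2 they had -1.07, -1.01, -0.17 and -0.36. Ccnd1 was thus the 1 of these 4 with nearly the same difference in both readings, but the second rested on 1 array. Ccnd1 read 12.23 on Socs2-/- array 3, within the wt range of 11.79 to 12.54, and 10.06 on array 4. Without array 4 alone the Ccnd1 difference was -0.69.

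E2F factors, their DP partners and MuvB subunits, which bind the pocket proteins or work with them on promoters, had 14 of 17 genes tested, with 10 below 0, 1 lower at an unadjusted p under 0.05 and a median of -0.33 (-0.01 without Socs2-/- arrays 1 and 2). Without those arrays 0 were lower and 1 higher at that unadjusted p in limma, the MuvB subunit Lin9, whose difference went from 0.24 to 1.38 (limma adjusted p = 0.544) and which was named after its values were seen. The activator E2f3 had -1.63 (limma adjusted p = 0.369; -0.71 without those arrays) and E2f1 -1.51 (-1.07). Lin54, the DNA-binding MuvB subunit, had -0.85 (0.81 without those arrays). E2f6, a repressor that works without pocket proteins, had -0.49 (-0.32 without those arrays), and the pocket-protein-dependent repressor E2f4 had -0.31 (-0.28). The 5 tested probes of E2f6 did not go 1 way, with 3 below 0 and differences from -0.49 to 1.88.

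Regulators of the inhibitors' level had 16 of 24 list entries tested, with 9 below 0 and a median of -0.13 (0.08 without Socs2-/- arrays 1 and 2). The first 3 genes named next met an unadjusted p under 0.05, and 0 genes of the list did in limma without those arrays. Bmi1, a Polycomb protein that represses the Cdkn2a locus, had -1.55, Cul1, the scaffold of the ubiquitin ligase that degrades p27, had -1.45, and the transcriptional repressor Gfi1 had 1.43. Dtl, next in rank, is the substrate adaptor of the CUL4 ligase that degrades p21 and had -1.25. Limma adjusted p lay between 0.369 and 0.487 for these 4, and without Socs2-/- arrays 1 and 2 they had -0.63, -0.85, 0.92 and -0.91. The other listed parts of the CUL4 ligase went the other way from Dtl. Cul4a had 0.94 (0.57 without those arrays, limma adjusted p = 0.522) and Ddb1 0.77 (0.82, limma adjusted p = 0.503). Skp2, the adaptor that brings p27 to the ligase built on Cul1, had -0.02 (0.27 without those arrays), and its cofactor Cks1b 0.09 (0.19).

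E2F target genes of S phase, the output of the switch, had 17 of 20 genes tested, with 8 below 0 and 9 above, 0 at an unadjusted p under 0.05, and a median of 0.06 (0.16 without Socs2-/- arrays 1 and 2). Ranked first by p were the licensing factor Cdt1 (0.97), the thymidine kinase Tk1 (0.67), the replicative helicase subunit Mcm5 (0.38) and the ribonucleotide reductase subunit Rrm2 (-0.41), with limma adjusted p from 0.499 to 0.705. Without Socs2-/- arrays 1 and 2 they had 1.10, 0.88, 0.26 and -0.23. Dimmer tested probes of the list's genes went further in both directions over all arrays. The lowest differences were -1.68 for Ezh2 and -1.36 for Mcm4, and the highest 1.19 for Uhrf1 and 1.05 for Tk1. Of the other inhibitors, Cdkn3, a phosphatase acting on CDK2, was tested and had a difference of 0.11 (limma adjusted p = 0.963; -0.24 without those arrays).

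**Figure D4:**
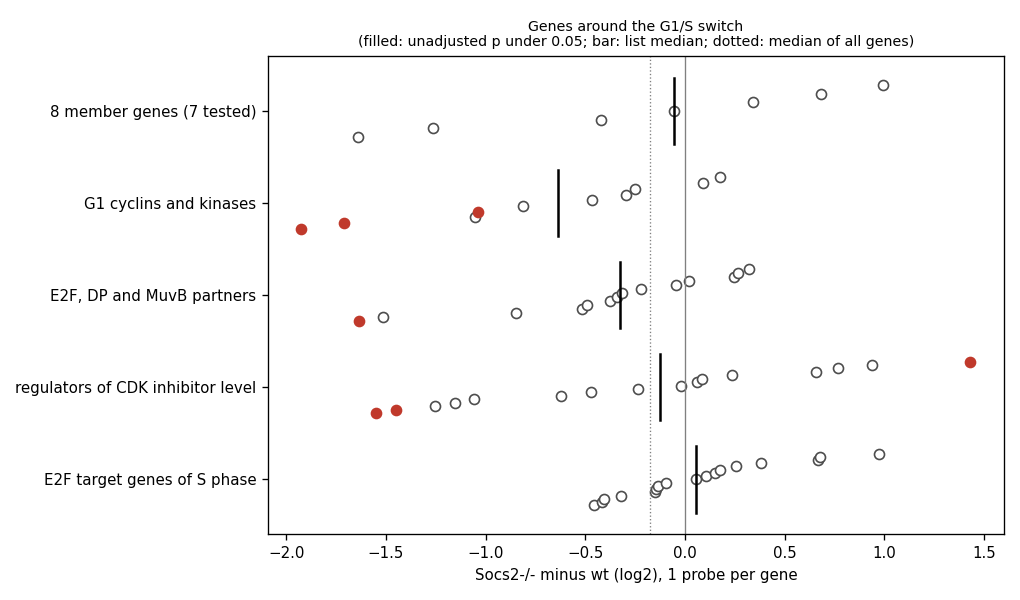
Differences between genotypes (Socs2-/- minus wt, log2, horizontal axis), 1 point per tested gene in each list, filled red at an unadjusted p under 0.05, with a bar at the list median and a dotted line at the median of all genes (-0.18). Medians were -0.05 for the 7 tested member genes, -0.64 for G1 cyclins and kinases, -0.33 for E2F, DP and MuvB genes, -0.13 for regulators of the inhibitors and 0.06 for S-phase targets.

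The profiles most like those of these genes were sought among 8280 named genes, by the mean absolute difference over the 9 arrays between deviations from each gene's own mean. For Rbl1 they were Rpia, of the pentose phosphate pathway, and Mapk1ip1l, at 0.20 and 0.21, where Rbl1's own mean absolute deviation was 0.70. Rb1 was nearest to Rnf103 and Naaa (0.32 and 0.33, against its own 1.36), and Cdkn1b to Bloc1s2 and the acetyltransferase gene Crebbp (0.35 and 0.36, against 0.93). Cdkn2d was nearest to Glud1 and Maea (both 0.38, against 1.06), Cdkn1c to Dusp12 and Adcy7 (0.34 and 0.37, against 1.08), Cdkn1a to Tsacc and Bbs2 (0.27 and 0.36, against 1.12) and Rbl2 to Ankrd24 and Mettl7a3 (0.14 and 0.16, against 0.46). With this many genes searched over 9 arrays, close profiles are found for any gene, and these are a description only.

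Of the markers that define the LSK gate, Kit was measured, above 7.5 on 5 of 5 wt and 3 of 4 Socs2-/- arrays by its brightest probe, with a difference of -0.08. The 3 tested Kit probes had differences from -0.24 to 1.94, with 2 below 0. Ptprc, the CD45 antigen of blood cells, read 10.57 to 11.38 on wt arrays and 10.50, 6.95, 10.53 and 10.39 on Socs2-/- arrays 1 to 4. All Socs2-/- values of Ptprc lay below all wt values, with a difference of -1.18 (limma adjusted p = 0.564) that was -0.32 without Socs2-/- arrays 1 and 2. Of 6 listed stem and early progenitor genes 5 were tested, with 3 differences below 0 and 2 above. An unadjusted p under 0.05 was met by 0 of them in limma. Slamf1 had -1.40 (-1.09 without Socs2-/- arrays 1 and 2), Procr 0.93 (0.54), Cd34 0.82 (0.37), Flt3 -0.45 (-0.19) and Cd48 -0.25 (-0.16). The B cell gene Ms4a1, the neutrophil elastase gene Elane and the erythroid gene Epor were at or below 7.5 on all 9 arrays. Other listed markers of mature cells were not. Among them Lyz2 and the megakaryocyte genes Pf4 and Gp9 read above 7.5 on all 9 arrays, and the T cell genes Cd4 and Cd3e on 7 and 5.

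Of 27 listed markers of other marrow cells 16 were tested, with 8 differences below 0 and 8 above, and an unadjusted p under 0.05 was met by 1 that was lower and 2 that were higher. Among erythroid genes Hba-a1 (alpha globin) had 3.37 (2.30 without Socs2-/- arrays 1 and 2), whereas for beta globin Hbb-b2 gave 0.70 (-0.20) and Hbb-bt gave 0.51 (-0.36). Among granulocyte and monocyte genes Csf1r (the macrophage colony-stimulating factor receptor) had 1.46 (1.66), myeloperoxidase (Mpo) -1.58 (-2.19) and lysozyme (Lyz2) -0.10 (0.06). Of the genes listed as endothelial, a label not checked in these cells, Tek had -1.31 (-0.86) and Pecam1 0.37 (0.45). Of the mast cell genes Mcpt8 had -2.08 (-1.08), Hdc 1.42 (0.42) and Cpa3 -0.39 (-0.91), with 1.07 by the other tested Cpa3 probe. The megakaryocyte genes Pf4, Itga2b and Gp9 had -0.29 (-0.68), 0.74 (-0.08) and -0.32 (-0.43). The T cell genes Cd3e and Cd4 had 0.27 (1.87) and -0.36 (-0.23). Limma adjusted p for Hba-a1, Csf1r and Tek, the 3 under the unadjusted threshold, ran from 0.218 to 0.447. The part of these markers in the differences above was not tested.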

How the data were processed

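RNA of sorted LSK cells (250 pg, per the labels' protocols) was amplified (NuGEN WT-Ovation Pico), labelled with biotin and hybridised to Illumina arrays. The authors deposited normalized values, used here as log2 values. The submitters' processing notes name lumi, but not its settings; for background correction, transformation and normalization no method is given in the sources used here. If a variance-stabilising transformation was used, differences of dim genes are understated. A second table was not used because its 18 per-array columns carry chip positions that no label gives.

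Probes above 7.5 on at least 4 of 9 arrays were compared between genotypes with limma 3.58.1 (lmFit, eBayes, two-sided, Benjamini-Hochberg over all 16526) in R 4.3.3, without covariates, at an adjusted p of 0.05. Single probes also had an exact two-sided permutation test over 126 regroupings, given here for probes of these genes only. Lists used the brightest tested probe per gene. Genes named were all members and, per list, those past the threshold or else the 4 with the smallest p, with a few further list genes chosen after their values were seen. Members and lists were chosen with earlier results of these data known. The planned comparison of protein sequences is not analysed here. Array number limits precision. The fit was tested on simulated data.

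Replicate numbers were checked for pairing: same-numbered arrays deviated from their group means with correlations of -0.07 to 0.03 over 4 pairs, so no pairing was assumed. Alternatives covered filters, scaling, probe choice, weights, variance model, block and arrays left out.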

Additional observations from a re-analysis of the deposited data

Results flagged for a closer look

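Dixon's outlier test was applied to 40 groups of 4 or 5 arrays (18 probes of these genes and 2 of Socs2, in each genotype). In 8 of them 1 array stood far from the rest of its group. About 1 in 20 would do so by chance if values were independent and normal. Dim values pile up near 7 and probes share arrays, so that rate need not hold here. Wt array 1 was high for 2 Cdkn1a probes, at 9.38 (others 7.32 to 7.71) for ILMN_2634083 and 8.75 (others 7.04 to 7.38) for ILMN_2846775. Cdkn2c probe ILMN_2420939 had a high array in each genotype, wt array 3 at 10.29 (others 6.74 to 7.14) and Socs2-/- array 2 at 9.12 (others 6.66 to 6.83). Cdkn1b ILMN_2923960 read 8.30 on Socs2-/- array 3 (others 6.81 to 6.97), and Rb1 ILMN_2679619 read 9.0 on wt array 4 (others 7.96 to 8.11). The remaining 2 were Socs2 probes in wt, ILMN_1250749 at 8.93 on array 2 (others 6.72 to 7.01) and ILMN_2628178 at 10.36 on array 3 (others 9.38 to 9.65).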

How the results depend on the processing

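No probe of these genes, and no gene of the 5 pathway lists, passed the adjusted threshold under any alternative run. Of 218 values of the 12 probes under the alternatives, 206 kept their direction. The sign turned for Cdkn1b ILMN_2638428 with arrays centred (0.062), quantile normalization (0.022), the replicate block (0.22) and without Socs2-/- arrays 1 and 2 (0.12), and with single arrays left out it ran from -0.62 to 0.41. With single arrays left out, Cdkn1a ILMN_2634083 ran from -0.10 to 1.23, Cdkn2d from -1.05 to 0.33 and Rbl2 ILMN_2774662 from -0.034 to 0.68. The count of probes at an unadjusted p under 0.05 was 2 over all arrays. It was 0 with values above 7.5 on all 9 arrays (1 probe left) and with 1 probe per gene (7 left), and 1 with array weights. Raising values below 7.5 to 7.5 gave 3 (9.76% of all tested probes). A filter minimum of 8 gave 2 of the 6 probes left (11.3% of all tested probes). With single arrays left out the count was 2 to 4, and 4 without wt array 3, Socs2-/- array 3 or Socs2-/- array 4. Of all tested probes, 10.6% met that p over all arrays, 12.1% with values above 7.5 on all 9 arrays and 7.8% with array weights. With 1 probe per gene, 10.2% of all genes did. Without wt array 3 the share of all tested probes was 10.2%, without Socs2-/- array 3 14.7% and without Socs2-/- array 4 13.9%. With the replicate block, to which wt array 5 adds nothing for want of a partner, the count was 2 (7.78% of all tested probes), and the block passed no probe of these genes. The Socs2 difference lost its call with values below 7.5 raised to 7.5 (-2.17), arrays centred (-2.84), a variance trend (-2.96), the replicate block (-2.97) and without Socs2-/- arrays 1 and 2 (-3.04). With single arrays left out it ran from -3.03 to -2.79, with an adjusted p under 0.05 only without wt array 3. All alternatives listed were run. The cause of these shifts was not tested, except that the first 2 counts have fewer probes.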
